A study of Caenorhabditis elegans with 2 samples.

Results

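The 8 genes of *Caenorhabditis elegans* that encode the subunits of the cytosolic chaperonin CCT were examined for binding of the homeobox protein CEH-82. They were taken from the annotation as all protein-coding genes whose name begins with cct-, which gave cct-1 to cct-8, 8 of 19985 protein-coding genes. The data were lists of regions from chromatin immunoprecipitation with sequencing (ChIP-seq) of CEH-82 fused to eGFP in whole L2 larvae of mixed sex. The series held 1 group of 2 biological replicates. These animals were of strain OP212, which carries the allele unc-119(ed3) and the transgene ddEx58, and both replicates share this background. The name ddEx58 denotes an extrachromosomal array, and such arrays can be lost from some cells of an animal. For the antibody the labels give CEH-82 itself as target, and the library fragments measured 150 to 350 bp. No untagged strain was analysed here, and a region in whole animals can come from any tissue.

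CCT, also called TRiC, is a cage of a pair of stacked rings, and in eukaryotes each ring holds 1 copy of each of the 8 subunits. It uses ATP to fold newly made proteins, above all actin and tubulin, some of which it receives from the cochaperone prefoldin. The subunits are related in sequence but are not interchangeable, so the ring needs all of them, and the worm genes lie apart on several chromosomes. CEH-82 belongs to the homeodomain class of transcription factors, which bind short DNA sites through the homeodomain.

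Of the 8 subunit genes, 3 had a peak in their promoter window that passed the authors' reproducibility threshold, cct-1, cct-8 and cct-6. Below that threshold, cct-7 had a region among the strongest 1000 of the pooled list, cct-5 had a weak one, and cct-2, cct-3 and cct-4 had no summit in their promoter window in any list. The promoter window ran from 1000 bp upstream to 200 bp downstream of the annotated gene start. A summit is the position of highest signal in a region. The 3 of 8 (37.5%) compare with 507 of 19985 protein-coding genes (2.54%) with a reproducible summit in the same window. No test of this count was made. Each of the 3 peaks lay between 2 genes that run in opposite directions and was nearer to the start of the other gene, as were the pooled regions of cct-7 and cct-5. The cct-5 summit of replicate 1 was instead nearer to cct-5. When each summit was assigned to the nearest protein-coding start alone, 0 of the 8 subunit genes kept a reproducible peak, against 342 of all protein-coding genes (1.71%).

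The sequences around these summits are shown for the 3 genes with a reproducible peak and for cct-7. A promoter of similar layout that had no summit, cct-4, is shown beside them. Each spans the pooled summit and 100 bp to either side on the WBcel235 assembly (RefSeq), which is build ce11, written 5′ to 3′ on the strand of the CCT gene. For cct-4 the centre is the middle of the gap between its start and the divergent start. The positions are II:8185100-8185300 on the plus strand for cct-1, IV:1094233-1094433 on the minus strand for cct-8 and III:5855895-5856095 on the minus strand for cct-6. Those of the others are V:1871849-1872049 on the plus strand for cct-7 and II:8283337-8283537 on the plus strand for cct-4. Capitals mark matches to a set of 12 fixed motifs, and, in cct-1, cct-6 and cct-4, also a longer run of letters described further on.
cct-1: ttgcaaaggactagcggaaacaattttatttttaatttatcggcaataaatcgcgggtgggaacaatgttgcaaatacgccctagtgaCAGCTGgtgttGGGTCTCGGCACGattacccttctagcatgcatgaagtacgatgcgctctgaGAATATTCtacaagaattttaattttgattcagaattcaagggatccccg
cct-8: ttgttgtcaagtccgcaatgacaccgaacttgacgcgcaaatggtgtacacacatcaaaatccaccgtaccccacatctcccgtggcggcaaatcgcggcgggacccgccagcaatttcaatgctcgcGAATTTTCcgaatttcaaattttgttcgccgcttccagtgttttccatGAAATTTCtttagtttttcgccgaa
cct-6: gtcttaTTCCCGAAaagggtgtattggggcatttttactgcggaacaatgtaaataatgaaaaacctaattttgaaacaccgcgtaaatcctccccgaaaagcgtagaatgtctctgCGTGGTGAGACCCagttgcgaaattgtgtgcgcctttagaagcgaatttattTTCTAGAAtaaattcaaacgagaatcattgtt
cct-7: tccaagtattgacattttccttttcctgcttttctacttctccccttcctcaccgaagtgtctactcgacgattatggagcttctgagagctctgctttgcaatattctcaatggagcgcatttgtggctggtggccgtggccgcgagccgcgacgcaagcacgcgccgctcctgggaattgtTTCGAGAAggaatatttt
cct-4: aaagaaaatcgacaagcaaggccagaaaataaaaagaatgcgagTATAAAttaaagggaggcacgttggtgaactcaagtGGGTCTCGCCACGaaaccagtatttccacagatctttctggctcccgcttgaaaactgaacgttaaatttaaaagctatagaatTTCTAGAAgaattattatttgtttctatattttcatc

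The strongest site was in the promoter window of cct-1 (WBGene00000377, II:8185443-8187601, plus strand), which encodes the alpha subunit. Its reproducible peak, II:8185068-8185331, had a signal value of 66.3 and ranked 42 of 537. Signal values are the authors' own per region, with no stated scale, and rank regions only within 1 list. In the replicate lists the same site had a signal value of 16.2 and rank 93 of 30000 in replicate 1, and 50.1 and rank 35 of 30000 in replicate 2. Both replicates thus placed it in the strongest 0.310% or less of their regions. The summits, at -243 bp from the start in the pooled and replicate 2 lists and at -235 bp in replicate 1, were 8 bp apart between replicates. Upstream lies mig-5, a Dishevelled protein of the Wnt pathway, whose start is at -420 bp on the other strand. The pooled summit was at -177 bp from the mig-5 start.

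For cct-8 (WBGene00021934, IV:1087108-1093920, minus strand), which encodes the theta subunit, the peak IV:1094201-1094464 had a signal value of 51.6 and ranked 68 of 537. It ranked 44 in replicate 1, with a signal value of 21.4, and 94 in replicate 2, with 30.8. The replicates therefore exchanged the order of the top 2 subunits, with cct-8 ahead of cct-1 in replicate 1 and behind it in replicate 2. The pooled summit was at -413 bp from the cct-8 start, and the replicate summits, at -461 bp and -416 bp, were 45 bp apart. The divergent gene Y55F3AR.2 starts at -621 bp, and the summit was at -208 bp from that start.

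A weaker reproducible peak, III:5855863-5856126, lay in the promoter window of cct-6 (WBGene00000381, III:5853530-5855687, minus strand), the zeta subunit gene. Its signal value was 22.9, rank 433 of 537, where the lowest reproducible peak had 21.1. The replicates differed in how high they placed it. It ranked 1180 in replicate 1, with a signal value of 6.88, and 509 in replicate 2, with 14.8. It was therefore outside the 537 strongest regions of replicate 1. Among those, 2 of the 8 subunit genes had a summit, cct-1 and cct-8, against 2.00% of protein-coding genes. The deposited significance of the cct-6 peak, the −log10 of a q-value, was 2.46 in the thresholded list, where the cct-1 and cct-8 peaks had 2.93. These were the lowest and the highest values in that list. The pooled summit, at -308 bp, lay at -23 bp from the start of alh-9, an aldehyde dehydrogenase gene whose start is at -331 bp from that of cct-6.

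**Figure D1:**
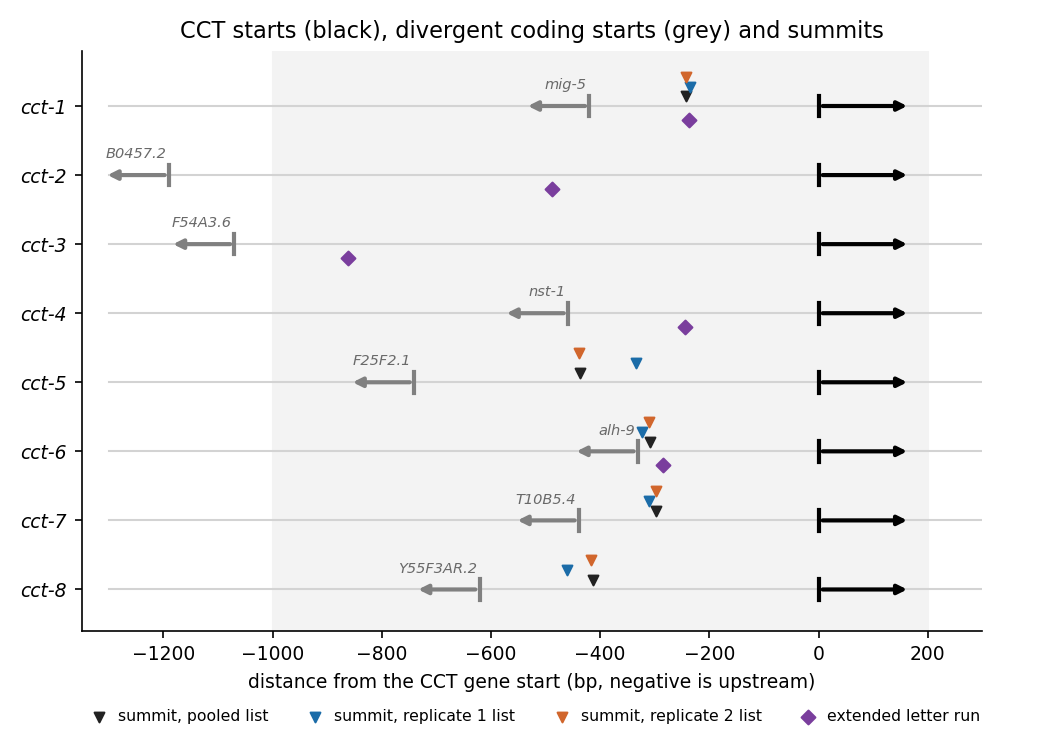
Promoters of the 8 CCT genes, drawn to scale by distance from the CCT gene start in bp (negative is upstream, shaded area is the promoter window), with CCT starts in black, the nearest divergent protein-coding starts in grey, summits as triangles coloured by list and the extended letter run as diamonds. Summits of cct-1, cct-6, cct-7 and cct-8 lie between the 2 starts and nearer to the grey one, and cct-4 has the run at -250 bp but no summit.

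Among the subunits without a reproducible peak, cct-7 (WBGene00020391, V:1872246-1875505, plus strand), the eta subunit gene, came closest. Its pooled region V:1871817-1872080 had a signal value of 17.8 and ranked 722 of 9070. In the replicates it ranked 2677, with a signal value of 5.71, and 1013, with 10.5. The summit at -297 bp was shared to within 13 bp by both replicates and was at -142 bp from the start of T10B5.4 and at -31 bp from that of T10B5.13, a noncoding RNA gene on the cct-7 strand. Counting summits among the strongest 1000 pooled regions, 4 of the 8 genes had one, against 779 of 19985 protein-coding genes (3.90%).

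The epsilon subunit gene cct-5 (WBGene00000380, III:4499188-4508114, minus strand) had a pooled region, III:4508419-4508682, at -437 bp with a signal value of 8.87, rank 4766 of 9070. The median of that list was 8.98, and the −log10 q of the region was 0.12. Its ranks in the replicates were 15883, with a signal value of 3.25, and 6017, with 5.71, and their summits were 104 bp apart. This region was thus an ordinary member of lists that hold background by construction, in which replicate 1 had a summit in the window of 37.1% of protein-coding genes and replicate 2 in that of 36.9%. The divergent gene F25F2.1 starts at -741 bp.

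No list had a summit in the windows of cct-2 (WBGene00000378, II:8927741-8929815), cct-3 (WBGene00018782, II:2233540-2243539) and cct-4 (WBGene00000379, II:8283667-8285711), the genes of the beta, gamma and delta subunits, all on the plus strand. The nearest pooled summits were at 1100 bp for cct-2, 10129 bp for cct-3 and -1578 bp for cct-4. A replicate 2 region with a signal value of 7.52, rank 2431, lay at -1075 bp from the cct-4 start, just outside the window. The weakest regions listed had signal values of 7.40 in the pooled list, 2.26 in replicate 1 and 2.91 in replicate 2. A site weaker than these would not appear, and the lists give no read counts, so binding at these promoters was not detectable here rather than shown to be absent. The same 5 genes, cct-1, cct-5, cct-6, cct-7 and cct-8, had a summit in the pooled list and in each replicate list, 62.5% of the 8 in each case, where the pooled list had one for 3092 protein-coding genes (15.5%).

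**Figure D2:**
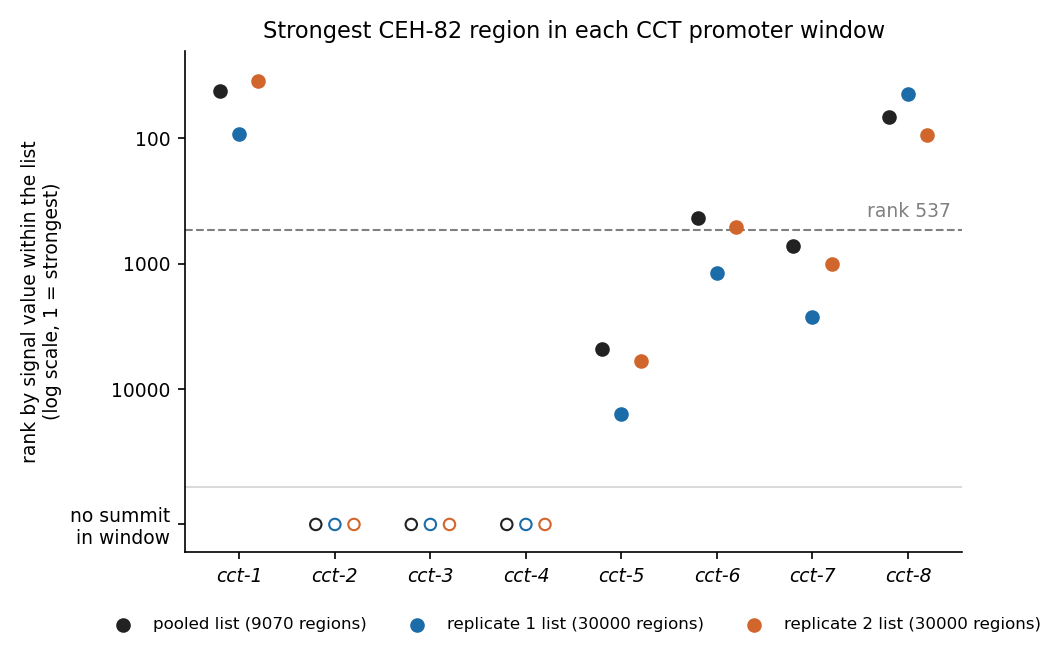
Rank by signal value (log scale, 1 is the strongest region) of the best-ranked summit in each CCT promoter window, in the pooled list and in each replicate list, with open circles where no summit was listed and a dashed line at rank 537, the length of the reproducible list. The genes cct-1 and cct-8 rank between 35 and 94 in all 3 lists, and cct-2, cct-3 and cct-4 have no summit in any of them.

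Ordered by rank, cct-6, cct-7 and cct-5 followed in that sequence in both replicates, behind cct-1 and cct-8. The signal values of the replicates are on scales of their own, so no SD is given. The exchange of cct-1 and cct-8 means that the replicates did not separate these neighbours. Among the 507 protein-coding genes with a reproducible summit, 38 had a higher signal value than cct-1, 67 a higher one than cct-8 and 407 a higher one than cct-6. The median signal value was 51.6 over the 3 subunit genes with a reproducible peak and 29.2 over the 507 genes. The 3 summits lay at a median of -308 bp from the CCT start, against -249 bp over the 507 genes, 96.6% of which had their summit upstream of the start. None of the 5 pooled CCT summits fell inside an annotated gene.

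**Figure D3:**
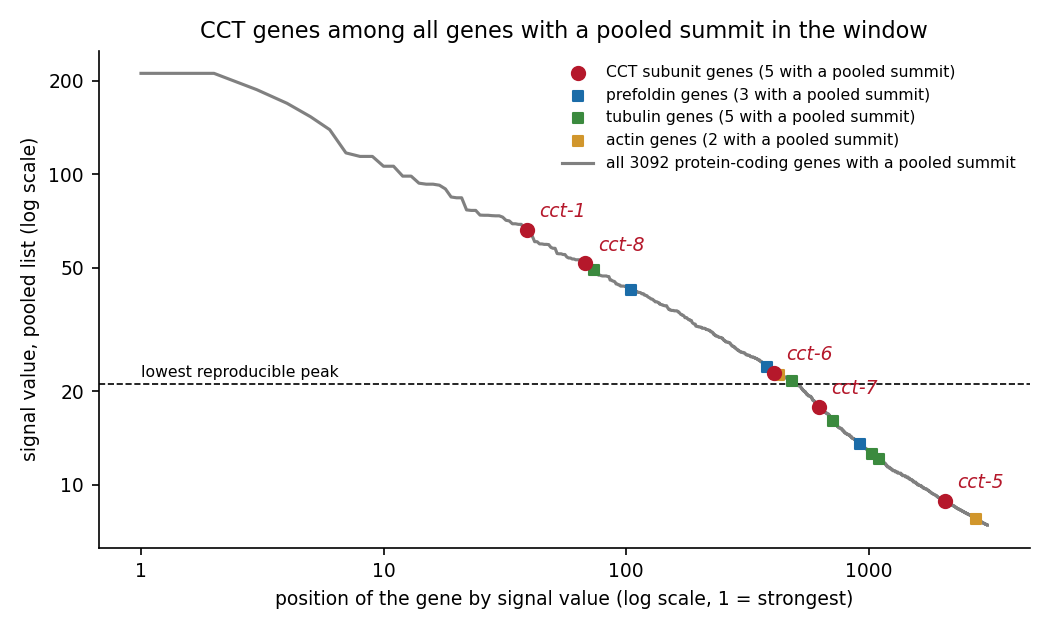
Signal value in the pooled list (log scale) of the strongest summit in the promoter window, for the 5 CCT genes with a pooled summit (red circles), for prefoldin, tubulin and actin genes (squares) and for all 3092 protein-coding genes with one (grey line), ordered from the strongest (log scale). The dashed line marks the lowest reproducible signal value, 21.1, which lies between cct-6 (22.9) and cct-7 (17.8).

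The layout of the promoters differed between the subunits. A protein-coding start on the other strand lay within 1000 bp upstream for 6 of the 8 genes, cct-1, cct-4, cct-5, cct-6, cct-7 and cct-8, against 3539 of 19985 protein-coding genes (17.7%). For cct-2 and cct-3 the nearest such starts were at -1190 bp and -1070 bp, those of B0457.2 and F54A3.6. All 3 reproducible CCT peaks were at divergent promoters, that is 3 of 6 such genes and 0 of the other 2, where 258 of the 3539 divergent genes (7.29%) and 249 of the 16446 other protein-coding genes (1.51%) had a reproducible summit. Such a summit was nearer to another start than to the gene's own for 132 of those 258 genes (51.2%). A summit between divergent starts counts for both genes of the pair, so this share was largely fixed by the counting. It is no background for the CCT summits that lay nearer to the other start. Divergent promoters of like length differed in whether they held a summit. For cct-1 the mig-5 start lay at -420 bp and every list had a summit between them. For cct-4 the start of nst-1, a nucleostemin gene, lay at -459 bp and no list had one. The median gap was 496 bp over the 258 genes and 477 bp over the 3539.

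Ranks were compared by Euclidean distance in log10 rank over 3 lists, pooled, replicate 1 and replicate 2, among 2082 protein-coding genes. The genes at the smallest distance from each of the 3 subunits with a reproducible peak were taken as most like it. For cct-1 they were rps-28, a ribosomal protein gene, and Y41D4B.4, which share a summit with ranks of 47, 113 and 45 in those lists and a distance of 0.146. For cct-8 they were cebp-1, which encodes a bZIP transcription factor, at a distance of 0.0850, and dpy-23, a clathrin adaptor subunit, at 0.105. For cct-6 they were pfd-3, a prefoldin subunit, at 0.0584, and rsp-1, which encodes an SR splicing factor, at 0.0873.

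Genes for the partner and the clients of CCT showed an uneven pattern too. Assignment to the nearest start is not given for them, so a summit counted here can be nearer to another start. Of the 6 prefoldin genes, 2 had a reproducible summit, pfd-1 and pfd-3, against the same 2.54% of protein-coding genes. The pfd-1 peak, at -335 bp, had a signal value of 42.3, with rank 193 in replicate 1 and 125 in replicate 2. The pfd-3 peak, at -26 bp, had 23.9, with ranks of 1227 and 460. The best-ranked pfd-6 summits of the replicates lay at different places, at 49 bp with rank 377 in replicate 1 and at -80 bp with rank 12529 in replicate 2. The genes pfd-2 and pfd-4 had no summit in any list. The remaining prefoldin gene, pfd-5, had summits far apart in the replicates, at -189 bp with rank 9288 and at -829 bp with rank 11125. It had none in the pooled list.

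Of the 15 tubulin genes, 2 had a reproducible summit, and of the 5 actin genes 1 did, where 2.54% of all protein-coding genes had one. The alpha tubulin gene tba-2 had a signal value of 49.2 at -161 bp, with ranks of 40 in replicate 1 and 146 in replicate 2. The beta tubulin gene tbb-2 had 21.6 at -627 bp, with ranks of 468 and 474. The actin gene act-4 had 22.5 at 61 bp downstream of its start, and it ranked far apart in the replicates, at 6271 in replicate 1 and 380 in replicate 2. Among the 537 strongest regions of replicate 1 neither act-4 nor pfd-3 had a summit, and pfd-6 had one. The tbb-2 peak is outside a window of 500 bp upstream to 100 bp downstream. In the pooled list 5 of the 15 tubulin and 2 of the 5 actin genes had a summit, against 15.5% of protein-coding genes. The additional ones were tba-1, tbb-1 and ben-1, with signal values of 16.1, 12.1 and 12.6, and act-3 with 7.77. The tubulin genes mec-7, mec-12, tba-4, tba-6, tba-8 and tbb-4 and the actin gene act-5 had none in any list. The other tubulin and actin genes, tba-5, tba-7, tba-9, tbb-6, act-1 and act-2, were listed in 1 or both replicates at ranks from 4777 to 28119.

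**Figure D4:**
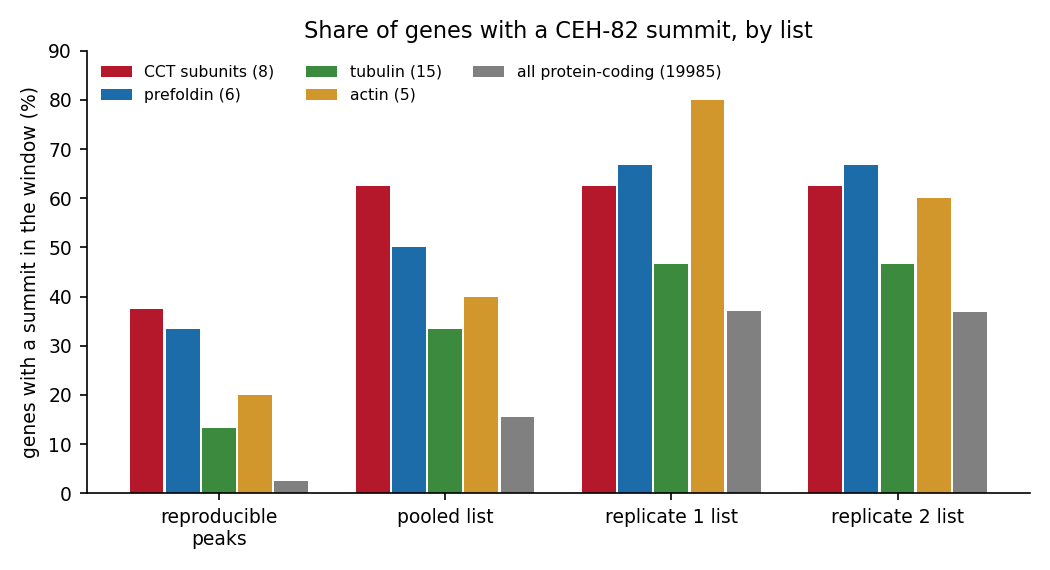
Percentage of genes with a summit in the promoter window (bars, from 0) for the 8 CCT, 6 prefoldin, 15 tubulin and 5 actin genes and for all 19985 protein-coding genes, in the reproducible, pooled and replicate lists. For CCT the share is 37.5% in the reproducible list and 62.5% in the other lists, where all protein-coding genes have 2.54%, 15.5%, 37.1% and 36.9%.

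Of the 12 fixed motifs, 3 were found around the CCT summits. They were searched on both strands in windows of 100 bp to either side of the summit at the 5 pooled CCT sites, of which those of cct-5 and cct-7 were below the reproducibility threshold. Shares are therefore given over the 537 reproducible and over all 9070 pooled windows. The homeodomain core TAATTA was in none of the 5, against 5.77% of reproducible and 7.76% of pooled windows, and TAATTG was in none, against 6.33% and 13.3%. None of the 5 held the GAGA repeat GAGAGAGA, which was in 14.2% of reproducible and 4.58% of pooled windows, the cut-like site ATCGAT (11.2% and 7.95%) or the GC box GGGCGG (11.0% and 5.99%). TATAAA (9.12% and 17.8%), the E-box CACGTG (4.84% and 3.96%), the E2F-like GCGGGAA (4.84% and 2.67%) and the extended heat shock element (1.49% and 1.15%) were also in none. The E-box CAGCTG was in the cct-1 window, with its centre at -9.50 bp from the summit, and in 7.82% of reproducible and 4.49% of pooled windows. These matches and their absence describe letters only.

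Each of the 5 windows held 1 of the 2 short pairs of heat shock half-sites. Both pairs are palindromes, and both lie inside the extended element. GAANNTTC was in the cct-1 and cct-8 windows and in 8.01% of reproducible windows, and TTCNNGAA was in those of cct-5, cct-6 and cct-7 and in 6.15%. Over all 9070 pooled windows the shares were 12% and 12.4%. The share of windows with either pair is not given here, so the count of 5 windows has no matching share beside it. The same 8 letters, TTCTAGAA, stood in the cct-5 and cct-6 windows and in the middle of the cct-4 gap, which had no summit. The matches lay off the summits, with centres at 54.5 bp for cct-1, 31.5 bp and 79.5 bp for cct-8, -90.5 bp and 72.5 bp for cct-6, 86.5 bp for cct-7 and 21.5 bp for cct-5. With 50 bp to either side of the summit, cct-5 and cct-8 kept a short pair, and cct-1 kept only the E-box CAGCTG. The cct-6 and cct-7 windows then held none of the fixed motifs.

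Base composition varied among the subunits. The cct-7 and cct-8 windows had 50.7% and 48.3% G and C, and those of cct-1, cct-6 and cct-5 had 41.8%, 39.3% and 38.3%. The median was 46.3% over the reproducible windows (46.7% ± 6.93, mean and SD over 537 windows) and 38.3% over all pooled windows. The strongest subunit site, cct-1, was thus below the median of reproducible windows.

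A longer run of letters recurred in the CCT promoters. It was noticed on reading the cct-1, cct-4 and cct-6 windows, so its presence in those 3 is how it was chosen. It consists of GGGTCTC, 2 free bases and CACG, 13 bases in all, on either strand. The matches, read on the strand that carries them, are given to show how alike they are and where they sit.
cct-1, -244 to -232 bp: gggtctcggcacg
cct-6, -291 to -279 bp, on the opposite strand: gggtctcaccacg
cct-4, -250 to -238 bp: gggtctcgccacg
cct-2, -495 to -483 bp, on the opposite strand: gggtctcgccacg
cct-3, -867 to -855 bp: gggtctcgccacg

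The cct-2 and cct-3 promoters had not been read when the run was chosen. Their 13 bases equal those of cct-4, free bases included. In all, 5 of the 8 CCT promoter windows held the run, and cct-5, cct-7 and cct-8 did not. The 5 include cct-1, cct-4 and cct-6, from which it was chosen, so only cct-2 and cct-3 were found without that choice. Of 19973 windows of nuclear protein-coding genes, 359 (1.80%) held it. At cct-1 its centre lay 5 bp from the pooled summit, and at cct-6 it lay 23 bp away. The run did not divide the subunits with a reproducible summit from those without one. Of the 5 CCT genes with it, 2 had a reproducible summit and the other 3 had no summit in any list, and cct-8 had a strong one without it. Among all protein-coding genes, 33 of 359 with the run (9.19%) and 474 of 19614 without it (2.42%) had a reproducible summit. These sets were not matched for promoter layout. A reproducible summit was found for 7.29% of divergent protein-coding genes and 1.51% of the others. A site between divergent starts can also count for both genes. At cct-1 and cct-6 the run and the summit lie in the mig-5 and alh-9 windows too. Whether layout accounts for the difference was not tested. The run was in 16 of 537 reproducible windows (2.98%), at a median of 20.5 bp from the summit, and in 19 of the 8533 pooled windows below the threshold (0.223%), at a median of 50 bp. These windows were not matched for base composition. The median of G and C was 46.3% over reproducible and 38.3% over all pooled windows, and the fixed letters of the run are mostly G and C. The 33 genes and the 16 windows include the cct-1 and cct-6 sites, on which the run was chosen. These shares and distances are therefore not independent of that choice. Whether CEH-82 binds these letters was not tested.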

How the data were processed

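ChIP-seq of eGFP-tagged CEH-82 was analysed as region lists on build ce11, for 1 group of 2 biological replicates. Per the deposited file descriptions, the authors called peaks with background against a control alignment, for each replicate and for both together, and kept the pooled regions that passed an irreproducible discovery rate threshold. Neither aligner, caller nor threshold is named (not given in the sources used here). The control was not analysed here. The signal value is a score the authors deposited with no stated scale. The deposited significance is a −log10 q-value. The lists hold no read counts, so depth is unknown. Lists on build ce10 were not used.

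Summits were assigned to Ensembl release 115 gene starts on WBcel235 with Python 3.11.15, pandas 2.3.3 and numpy 2.4.6, and plotted with matplotlib 3.10.9. The window assignment was tested on simulated data. Of each gene with several summits in its window, the strongest was used. The 12 motifs were matched as exact letters. The members, gene lists and motifs were chosen with earlier results of these data known. Genes named are the CCT genes, those sharing a CCT summit, prefoldin, actin and tubulin genes, and for each of the 3 strongest subunits the 2 genes closest in rank. The divergent genes of cct-2, cct-3 and cct-4 were named after their values were seen. A check against RefSeq gene starts was added after the data were seen.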

Additional observations from a re-analysis of the deposited data

How the results depend on the processing

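The count of 3 subunit genes with a reproducible peak was the same with windows of 500 bp upstream to 100 bp downstream and of 2000 bp to 500 bp, with overlap of the whole interval, with any transcript start, with RefSeq starts and with replicate 2 alone. It was 2, cct-1 and cct-8, with the stronger 50% of the list and with replicate 1 alone. It was 0 when each summit counted for its nearest protein-coding start only. Over all protein-coding genes the share was 2.04% with the shorter window, 3.27% with the longer one and 2.65% with overlap. It was 2.40% with replicate 2 alone, 2.00% with replicate 1 alone, 1.36% with the stronger 50% and 1.71% with the nearest start only. No such share is given for any transcript start or for RefSeq starts. With each replicate alone in place of the pooled list, the best region was in the strongest 0.117% to 0.310% for cct-1, 0.147% to 0.313% for cct-8, 1.70% to 3.93% for cct-6, 3.38% to 8.92% for cct-7 and 20.1% to 52.9% for cct-5. The summit lay at -243 bp to -235 bp for cct-1, -461 bp to -416 bp for cct-8, -323 bp to -311 bp for cct-6, -310 bp to -297 bp for cct-7 and -439 bp to -335 bp for cct-5. Pooled and replicate lists differ in length, so a share of one is not a share of another. Of the 5 pooled sites, 4 were in both replicate lists within 100 bp or 50 bp and 5 within 200 bp. There were 6 pairs of a CCT window and a motif in it with 100 bp to either side of the summit, 3 with 50 bp and 10 with 200 bp, as shorter windows hold fewer letters. The 5 partner and client genes were 4 with the shorter window, which lost tbb-2, and 6 with the longer one, which added tba-1. They were the same 5 with replicate 2 alone, and 4 with replicate 1 alone, which lost act-4 and pfd-3 and added pfd-6. The shares of all protein-coding genes given above for these settings apply here as well. No paired analysis was possible because there was 1 group. Without read counts, sites weaker than the weakest listed region could not be assessed.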
